A study of Mus musculus with 6 samples.

Results

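The replication-dependent histone genes are the clustered genes for the linker histone H1 and the core histones H2A, H2B, H3 and H4 that carry a symbol starting with *Hist1h*, *Hist2h*, *Hist3h* or *Hist4*. GENCODE M21 gave 67 protein-coding genes with such a symbol, 65 of which were in the table of 47729 genes, and 56 had a mean of 5 or more normalized counts over the 6 libraries. These 56 members comprised 5 H1, 15 H2A, 14 H2B, 9 H3 and 13 H4 genes. The *Hist1* cluster on chromosome 13 (21715763 to 23764406 on GRCm38) held 48 of them, the *Hist2* cluster on chromosome 3 held 5, the *Hist3* cluster on chromosome 11 held 2, and *Hist4h4* lay alone on chromosome 6. RNA came from the proximal tibial epiphysis, which spans the growth plate with the bone and cartilage on either side of it and, by the labels, holds marrow. Mice were 14 days old, and both epiphyses of a mouse were pooled into 1 library of polyadenylated RNA. The groups were 3 mice of the Longshanks 1 line (LS1), bred selectively for tibia length relative to body mass, and 3 random-bred Control mice of the ICR strain, drawn from different families, so that LS1 is 1 selected line and its genome-wide background cannot be told apart from the selected trait. The comparison asks whether transcripts of the histone genes differed between the lines.

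Replication-dependent histones package newly made DNA, and their transcripts accumulate during S phase and are removed when it ends. These transcripts have no introns and normally end not in a poly(A) tail but just after a conserved stem-loop that the stem-loop binding protein SLBP holds. Polyadenylated forms of the same transcripts are made when the RNA runs on to a downstream poly(A) signal, and such forms are known from differentiated cells, including marrow lineages. Selection of polyadenylated RNA therefore samples the tailed forms and whatever tailless RNA is carried over, and the values below are not the total histone mRNA of the tissue.

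The stem-loop is shown first because it is the shared 3′ feature by which these genes differ from other protein-coding genes. It was searched for in the 150 bases after the stop codon of the annotated transcripts of GENCODE M21 as a 16-base consensus, the arms of a 6-base stem starting with GG around a 4-base loop. A match was found in 39 of the 56 members, starting 22 to 55 bases after the stop codon. The leading matched member of each class by level per exonic kilobase, and 1 H4 gene with the rarer stem, are given 5′ to 3′ with the stem-loop in capitals and up to 5 bases on each side.
Hist1h1c: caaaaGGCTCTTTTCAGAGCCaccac
Hist1h2ap: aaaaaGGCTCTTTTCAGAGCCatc
Hist3h2ba: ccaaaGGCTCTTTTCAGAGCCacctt
Hist2h3c2: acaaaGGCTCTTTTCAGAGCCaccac
Hist1h4i: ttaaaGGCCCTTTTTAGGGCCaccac
Hist1h4j: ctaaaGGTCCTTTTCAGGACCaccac
All 27 matches in H1, H2A, H2B and H3 genes began with GGCTC, and 21 of them were the same 16 bases as in *Hist1h1c*. The 12 matches in H4 genes had GGCCC in 10 and GGTCC in 2. Of the 17 members without a match, 12 have an annotated transcript that ends within 2 bases of the stop codon and leaves nothing to search. The other 5 were *Hist1h1a*, with 48 annotated bases after the stop, and *Hist1h2bc*, *Hist2h2be*, *Hist1h2bq* and *Hist1h2br*, whose annotated 3′ ends of 742 to 2192 bases hold no match in the longest transcript.

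H2A and H2B genes often stand head to head and share the DNA between their starts, and 11 such pairs of members were found, with 175 to 301 bases between the 2 gene starts. The shared stretches of 2 pairs are printed because their H2B genes, *Hist2h2be* and *Hist1h2bc*, had the highest levels per exonic kilobase among H2B members and differences of opposite sign between the lines. They are read on the strand of the H2A gene from RefSeq on GRCm38.p6, chr3:96220881-96221118 and chr13:23683949-23684198, both minus strand, with CCAAT (or ATTGG) and TATAAA (or TTTATA) in capitals.
Hist2h2ac and Hist2h2be: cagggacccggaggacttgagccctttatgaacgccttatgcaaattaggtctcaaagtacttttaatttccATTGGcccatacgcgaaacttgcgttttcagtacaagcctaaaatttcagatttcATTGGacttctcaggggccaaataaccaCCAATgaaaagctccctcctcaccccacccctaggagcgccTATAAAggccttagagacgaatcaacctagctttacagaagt
Hist1h2ac and Hist1h2bc: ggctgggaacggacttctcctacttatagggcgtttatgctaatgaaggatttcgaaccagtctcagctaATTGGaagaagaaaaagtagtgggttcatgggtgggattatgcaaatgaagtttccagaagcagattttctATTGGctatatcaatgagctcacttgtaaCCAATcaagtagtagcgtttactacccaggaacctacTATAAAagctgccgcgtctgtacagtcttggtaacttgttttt
Each stretch held 3 CCAAT boxes on either strand and 1 TATAAA, with the TATAAA toward the H2A gene. Promoters, 250 bases before to 50 after the start, were matched for 52 members. CCAAT occurred on either strand in 43 of these 52 (82.7%), against 37.4% of all 32851 promoters, and TATAAA in 32 (61.5%), against 13.6%. CCAAT was present in all 5 H1, 15 H2A, 12 H2B and 8 H3 promoters matched but in 3 of 12 H4 promoters. The promoters of a head-to-head pair are largely the same DNA, so 1 CCAAT can count for both genes. The matched promoters of *Hist1h2bq* and *Hist1h2br* have the same sequence, so these counts are not of independent promoters. AAACACA, known as the H1 box, was in 4 of 5 H1 promoters, against 7.18% of all promoters. Such matches describe letters and were not tested as binding sites.

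Values are normalized counts, the reads of a gene divided by 1 size factor per library. The libraries held 68803249 to 88745366 reads on genes, and the 56 members together took 0.00789 to 0.0137% of them, so that most members rest on few reads. A mean of 20 or more reads, the minimum for the test, was reached by 34 members. The other 22 had too few reads to be tested and are given as values. All 12 chondrocyte, 9 osteoblast, 7 osteoclast, 12 neutrophil, 10 macrophage and 12 B cell markers, and 11 of 12 erythroid markers, were measured and none of them was at 0.

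Most replication-dependent histone genes had lower values in LS1. The LS1 mean was below the Control mean in 48 of the 56 members and above it in 8. Among the 34 tested members, 28 had a negative log2 fold change and 6 a positive one, with a median of −0.64 and a range from −1.33 to 0.68. Over all 19308 genes tested, the median was 0.01 and 49.3% were negative. No member passed an adjusted p of 0.05 in limma, against 14 of all genes tested (0.0725%), and edgeR called none of the members either. At an unadjusted p under 0.05, 11 of the 34 members (32.4%) were lower in LS1, against 5.86% of all genes, and 2 (*Hist3h2a* and *Hist1h2bc*) were higher, against 7.08%. The LS1 values lay wholly under the Control values for 20 of the 56 members (35.7%), against 8.57% of the 24437 genes with a mean of 5 or more. The opposite order was seen for 1 member, *Hist3h2a*, against 9.23% of those genes. DESeq2 on the recovered reads called 2.36% of all genes and 1 member, *Hist2h2be*, and no member (0 of 34) without Control replicate 1.

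**Figure D1:**
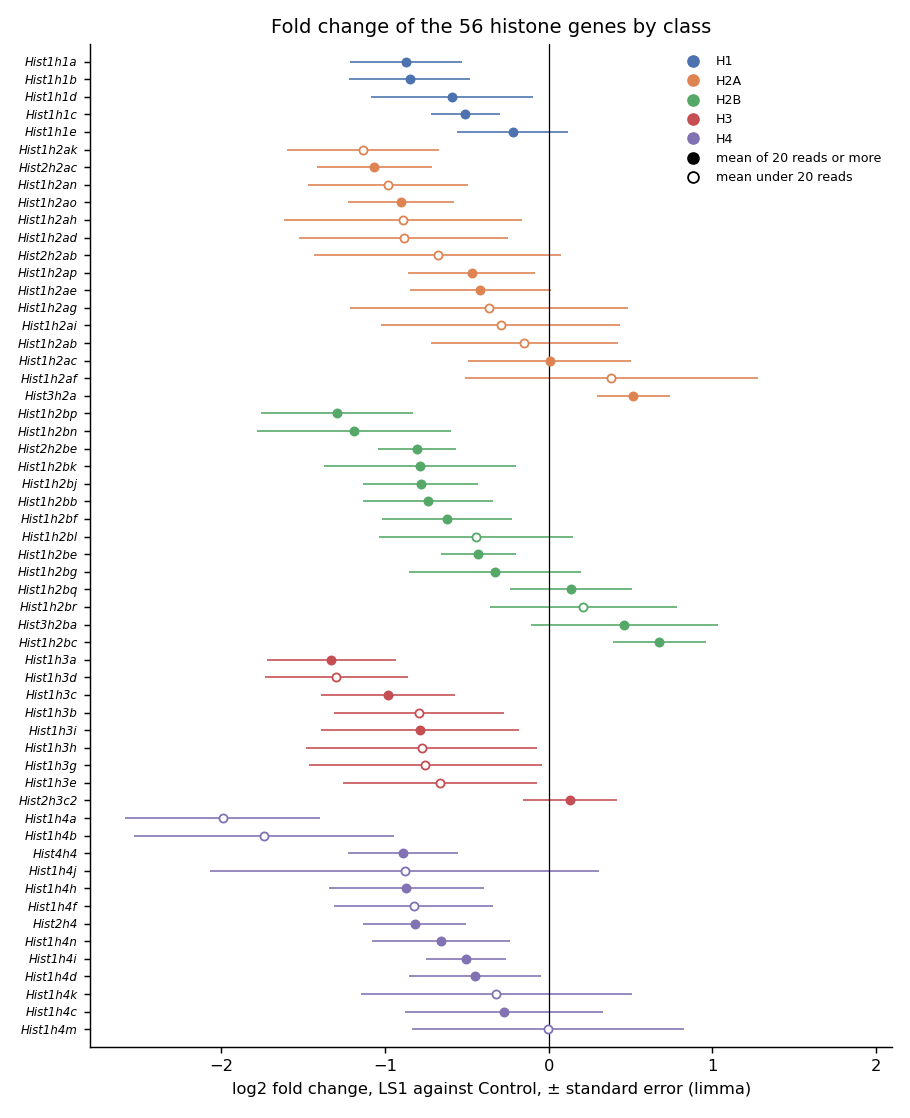
Log2 fold change of LS1 against Control (x axis, limma on log2(normalized count + 1), with its standard error as a bar) for each of the 56 members, ordered within class, from the fit that keeps genes with a mean of 5 or more. Filled points mark the 34 members with a mean of 20 reads or more. Of the 56 points, 48 lie to the left of 0.

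The difference varied among the 3 LS1 mice. For each member the log2 difference from the Control mean was taken in every library, and its median over the 56 members was −0.97, −0.45 and −0.28 in LS1 replicates 1, 2 and 3, and 0.08, −0.13 and 0.02 in the Control replicates. LS1 replicate 1 was the lowest library for 29 of the 56 members, LS1 replicate 2 for 12, and LS1 replicate 3 for 4. Without LS1 replicate 1, the median log2 fold change of the 34 tested members was −0.36, with 27 of them negative. The class medians without it were −0.34 for H1, −0.36 for H2A, −0.32 for H2B, −0.50 for H3 and −0.59 for H4. Without LS1 replicate 3 the median of the tested members was −0.78, and *Hist1h1a* then passed the threshold (limma adjusted p = 0.0443). It was 1 of 34 tested members called in that fit, against 324 of all 19308 genes. Because this is bulk RNA, fewer cells in S phase and less histone RNA per cell cannot be told apart. Neither can changes in the tailed share of histone RNA or in the tailless RNA carried over.

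The 5 somatic H1 genes, which encode the linker histones that bind where DNA enters and leaves the nucleosome, all had a lower LS1 mean, and their median log2 fold change was −0.59. *Hist1h1c* (chr13:23738808-23740367, plus strand), the gene for a somatic linker histone and an H1 gene known to give polyadenylated transcripts, was the most abundant member and made up 32.3% of the summed value of all 56. Its normalized counts were 3738, 2579.8 and 3109 in Control and 1735, 1992 and 3014 in LS1. The groups overlapped, because LS1 replicate 3 lay within the Control range while the other LS1 libraries lay below it. The log2 fold change of *Hist1h1c* was −0.51 ± 0.21 (SE, limma adjusted p = 0.347).

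*Hist1h1b* (chr13:21779883-21780625, minus strand), which encodes a linker histone of dividing cells, had normalized counts of 668, 589.8 and 700.1 in Control and 178, 452 and 583 in LS1. The LS1 libraries all lay under the Control range, with LS1 replicate 1 far below the rest. Its log2 fold change was −0.85 ± 0.38 (SE, limma adjusted p = 0.383), and −0.34 without LS1 replicate 1. *Hist1h1a* (chr13:23763666-23764406, plus strand), another linker histone gene of dividing cells, had 323, 498 and 471 in Control and 149, 205 and 405 in LS1. Here LS1 replicates 1 and 2 lay below the Control range and LS1 replicate 3 within it, for a log2 fold change of −0.87 ± 0.35 (SE, limma adjusted p = 0.329). The remaining H1 genes, *Hist1h1e* and *Hist1h1d*, had log2 fold changes of −0.22 ± 0.34 (SE, limma adjusted p = 0.821) and −0.59 ± 0.51 (SE, limma adjusted p = 0.660), and in both LS1 replicate 1 was the lowest library and LS1 replicate 3 the highest. Their fold changes turned to 0.16 and 0.02 without LS1 replicate 1, so their lower LS1 means rested on that library. *Hist1h1e* overlaps *Hist1h2be* on the same strand, so reads in the overlap cannot be given to either with certainty.

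**Figure D2:**
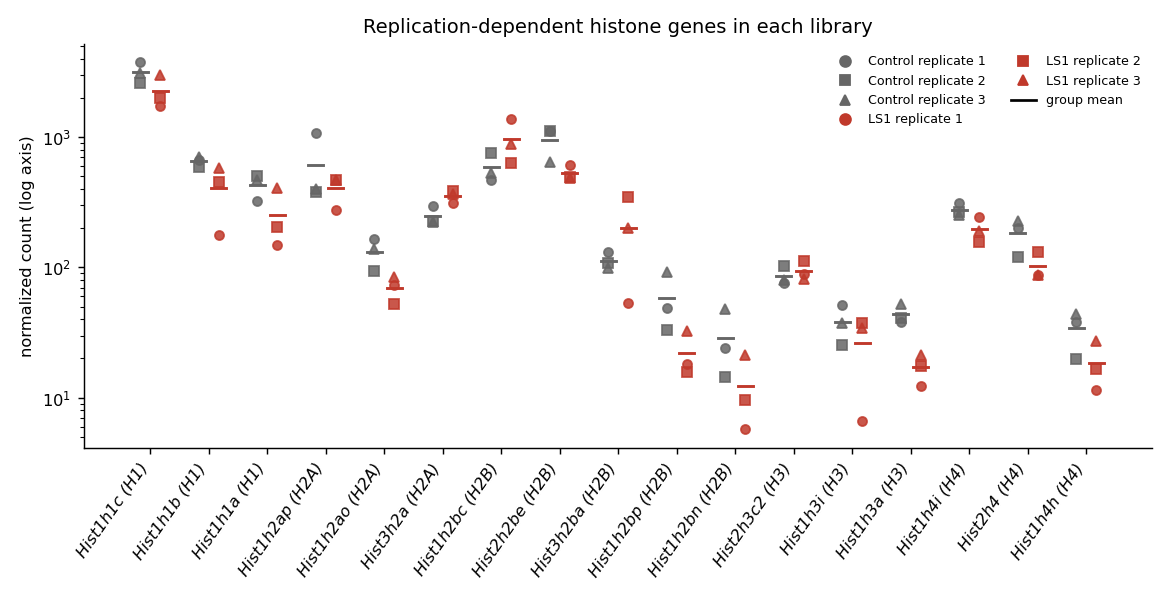
Normalized counts (y axis, log scale) of 17 members in each library: the 3 with the highest level per kilobase in each class, and the 3 tested members with the largest increase and decrease. Grey marks are Control and red marks LS1, the mark shape is the replicate and the short lines are group means. All LS1 marks lie below all Control marks for Hist1h1b, Hist1h2ao, Hist2h2be, Hist1h2bp, Hist1h3a and Hist1h4i, and above them for Hist3h2a.

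H2A genes encode the core histone that pairs with H2B, and 13 of the 15 members had a lower LS1 mean. The median log2 fold change of the 6 tested was −0.44, and −0.03 without Control replicate 1. The highest level per exonic kilobase was that of *Hist1h2ap* (chr13:21833026-21833507, minus strand), with normalized counts of 1068, 376 and 400.4 in Control and 274, 469.9 and 467 in LS1. Control replicate 1 stood far above the other 5 libraries, among which the groups overlapped. The log2 fold change was −0.47 ± 0.40 (SE, limma adjusted p = 0.651), and it was 0.015 without Control replicate 1. *Hist1h2ao* (chr13:21810465-21810944, plus strand) had 164, 94.2 and 138 in Control and 73.3, 52.2 and 83.9 in LS1, with no overlap between the groups and a log2 fold change of −0.90 ± 0.32 (SE, limma adjusted p = 0.296). Near-identical copies make both values uncertain: 6.70% of the 35-base windows of *Hist1h2ap* and 6.28% of those of *Hist1h2ao* occur in no other annotated transcript. Each gene also overlaps an annotated gene on the opposite strand, and windows in that overlap count as shared too.

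*Hist3h2a* (chr11:58954685-58956830, plus strand), an H2A gene of the small *Hist3* cluster, had the opposite order. Its normalized counts were 296, 227 and 225 in Control and 311, 387 and 368 in LS1. Every LS1 library was above every Control library, and the log2 fold change was 0.52 ± 0.22 (SE, limma adjusted p = 0.362). It overlaps *Trim17* on the same strand, and the reads of the shared stretch cannot be assigned with certainty. *Hist2h2ac* (chr3:96220361-96220880, minus strand), the H2A partner of *Hist2h2be*, had 67.6, 111 and 78.5 in Control and 30.5, 37.4 and 54.1 in LS1. Its LS1 libraries all lay under the Control range, with a log2 fold change of −1.07 ± 0.36 (SE, limma adjusted p = 0.279). The 9 H2A genes under the read minimum had means of 5.05 to 19.9. In 3 of them every LS1 value was under the Control range, against 8.57% of all genes with a mean of 5 or more. For *Hist1h2ad*, 1 of the 3, this order rested on 7 reads in each Control library and 5, 4 and 3 in LS1. An annotated microRNA gene lies on the opposite strand of 14 of the 15 H2A members and is listed at 0 in every library. Whether the counting used strand is not given in the sources used here, so the part of H2A reads lost to such overlaps was not tested.

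H2B members, which encode the partner of H2A in the nucleosome core, were less even, with 10 of 14 lower and 4 higher in LS1 by their means. *Hist2h2be* (chr3:96221119-96223738, plus strand), an H2B gene whose annotated transcript runs 2192 bases past the stop codon, had normalized counts of 1111, 1116 and 638 in Control and 612, 497 and 489 in LS1. No LS1 library reached the Control range. The log2 fold change was −0.80 ± 0.24 (SE, limma adjusted p = 0.247), between −1.07 and −0.67 when a library was left out, and DESeq2 gave −0.85 with an adjusted p of 0.0261, the 1 call among the members, which was lost when DESeq2 was run without Control replicate 1 (−0.73, adjusted p = 0.229).

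The most abundant H2B member was *Hist1h2bc* (chr13:23684199-23692908, plus strand), whose annotation, unlike that of a typical member, includes introns. It had 467, 756 and 529.8 in Control and 1382, 628 and 882 in LS1. LS1 replicates 1 and 3 were above the Control range and LS1 replicate 2 within it, and LS1 replicate 1, the lowest library for most members, was the highest here. The log2 fold change was 0.68 ± 0.29 (SE, limma adjusted p = 0.354). *Hist3h2ba* (chr11:58948920-58949533, plus strand), the H2B gene of the *Hist3* cluster, had 132, 108 and 98.4 in Control and 53.3, 344 and 199.6 in LS1. LS1 replicate 1 was the lowest of the 6 libraries while LS1 replicates 2 and 3 were the highest, so the log2 fold change of 0.46 ± 0.59 (SE, limma adjusted p = 0.779) turned to −0.11 without LS1 replicate 2.

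Among the H2B genes that were lower, *Hist1h2bp* (chr13:21787461-21789213, plus strand) had 48.4, 33.3 and 91.8 in Control and 18.1, 15.7 and 32.6 in LS1, with no overlap and a log2 fold change of −1.29 ± 0.47 (SE, limma adjusted p = 0.305). *Hist1h2bn* (chr13:21754123-21754503, plus strand) had 24.2, 14.4 and 47.6 in Control and 5.71, 9.57 and 21.5 in LS1 and a log2 fold change of −1.19 ± 0.61 (SE, limma adjusted p = 0.444). Its LS1 replicate 3 exceeded Control replicate 2, so the groups overlapped. *Hist1h2bb*, *Hist1h2bj*, *Hist1h2bf* and *Hist1h2be* had every LS1 value under the Control range, with log2 fold changes of −0.74, −0.78, −0.62 and −0.43, none past an adjusted p of 0.05.

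H3 genes, whose protein carries many of the chromatin marks on its tail, had the smallest summed value of the classes, with 8 of 9 members lower and a median of −0.88 over the 4 tested. *Hist1h3a* (chr13:23761853-23762386, minus strand) had the largest decrease of the tested members. Its normalized counts were 38.3, 41.0 and 52.0 in Control and 12.4, 17.4 and 21.5 in LS1. The groups were well apart, and the log2 fold change was −1.33 ± 0.41 (SE, limma adjusted p = 0.256), between −1.50 and −1.13 when a library was left out. *Hist1h3i* (chr13:21782960-21783370, minus strand) had 51.5, 25.5 and 37.6 in Control and 6.67, 37.4 and 34.5 in LS1. Only LS1 replicate 1 lay below the Control range, for a log2 fold change of −0.79 ± 0.62 (SE, limma adjusted p = 0.617), and 7.96% of its 35-base windows are its own.

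*Hist2h3c2* (chr3:96238108-96239127, minus strand), the most abundant H3 member, had 75.7, 102 and 79.6 in Control and 88.6, 111 and 82.1 in LS1. The libraries of both groups were mixed, with a log2 fold change of 0.13 ± 0.29 (SE, limma adjusted p = 0.883). *Hist1h3c* and *Hist1h3d* had no overlap between the groups, at 19.6 to 25.2 against 34.3 to 72.6 normalized counts for *Hist1h3c* and 8.70 to 13.1 against 22.2 to 29.9 for *Hist1h3d*, the latter too low to be tested.

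The 13 H4 members encode 1 protein of 103 residues, 12 had a lower LS1 mean and all 7 tested had a negative log2 fold change, with a median of −0.66. *Hist1h4i* (chr13:22040636-22041362, minus strand), the leading H4 gene, had normalized counts of 309.8, 264 and 252 in Control and 243, 156 and 189 in LS1. No LS1 library reached the lowest Control library, and the log2 fold change was −0.51 ± 0.25 (SE, limma adjusted p = 0.417). *Hist2h4* (chr3:96261682-96263311, minus strand), from the chromosome 3 cluster, had 202, 121 and 226 in Control and 86.7, 131 and 87.7 in LS1. Control replicate 2 lay below LS1 replicate 2, and the log2 fold change was −0.82 ± 0.32 (SE, limma adjusted p = 0.317). *Hist1h4h* (chr13:23531050-23531519, plus strand) had 38.3, 19.96 and 44.2 in Control and 11.4, 16.5 and 27.0 in LS1. The groups overlapped between Control replicate 2 and LS1 replicate 3, with a log2 fold change of −0.87 ± 0.49 (SE, limma adjusted p = 0.484). *Hist4h4* (chr6:136801553-136804415, minus strand), the lone chromosome 6 gene, was at 85.4 to 129 normalized counts in Control and 40.0 to 77.5 in LS1, with no overlap and a log2 fold change of −0.89 ± 0.34 (SE, limma adjusted p = 0.313). *Hist1h4j* was the member with a higher LS1 mean, which rested on LS1 replicate 3: it had 9.08, 21.1 and 18.8 in Control and 16.2, 0 and 40.1 in LS1.

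Summed over the members of a class, H4 and H3 were lower in every LS1 library than in any Control library. The H4 sum was 811, 674 and 885 in Control and 488, 469 and 532 in LS1, or 790.04 ± 107 in Control and 496 ± 32.2 in LS1 (SD, n = 3 each). The H3 sum was 329, 276 and 304 in Control and 158, 246 and 218 in LS1. H1 summed to 5296, 4127 and 4975 in Control and 2298, 3126 and 4767 in LS1, where LS1 replicate 3 lay inside the Control range and LS1 replicate 1 was the lowest library. The H2A sum, led by *Hist1h2ap*, was 1828, 1013 and 1003 in Control and 836, 1090.4 and 1103 in LS1, with the groups overlapping. The H2B sum was 2314, 2582 and 1937 in Control and 2395, 1924 and 2049 in LS1 and also overlapped. Leaving out *Hist1h2bc*, the H2B sum was 1846, 1826 and 1407 in Control and 1013, 1296 and 1167 in LS1, with no overlap. Without the most abundant member, the other overlapping classes still overlapped: H1 without *Hist1h1c* was at 1548 to 1866 in Control and 563 to 1754 in LS1, and H2A without *Hist1h2ap* at 603 to 761 and 562 to 635. All 56 members together summed to 10578, 8673 and 9104 in Control and 6174, 6856 and 8669 in LS1, and the highest LS1 library was just under the lowest Control library. Classes were compared by library only, with no test on a sum over members.

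**Figure D3:**
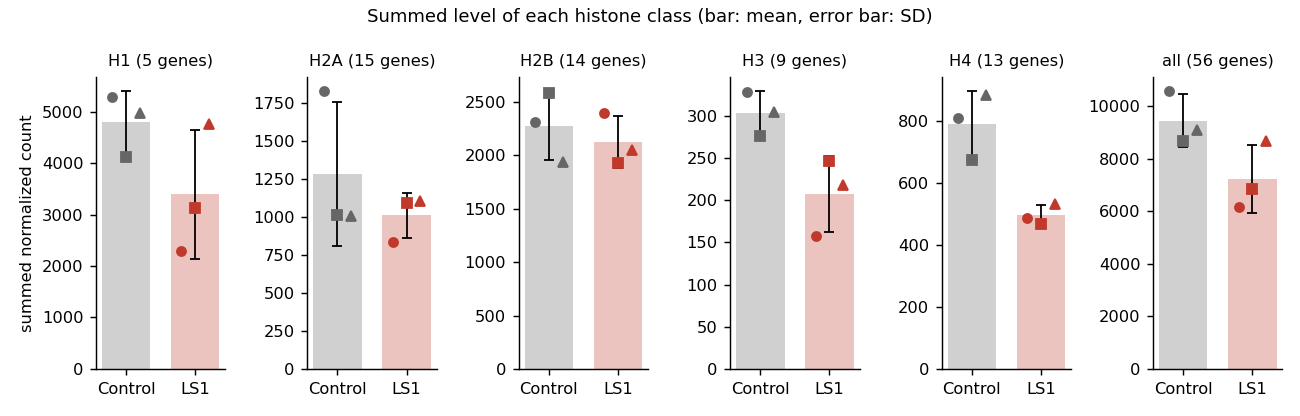
Summed normalized counts of the members of each class and of all 56 members in each library (y axes start at 0 and differ between panels). Bars are group means of 3 libraries, error bars are SD, and the circle, square and triangle are replicates 1, 2 and 3. The LS1 marks lie below the Control marks without overlap for H3, H4 and all members together.

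Members were next grouped by their annotated 3′ ends. The longest annotated transcript ran more than 150 bases past the stop codon in 23 members, which had a median of 81.4 normalized counts, or 40.4 per exonic kilobase. It ran 150 bases or fewer in 33 members, which had a median of 19.9, or 51.3 per exonic kilobase. The limit was chosen after the values were seen, and no test was run on it. The LS1 mean was higher in 7 of the 23 long members and in 1 of the 33 short ones (*Hist1h2af*, at 13.1, 23.3 and 1.11 in Control and 21.9, 11.3 and 4.66 in LS1). The 7 were *Hist3h2a*, *Hist1h2bc*, *Hist3h2ba*, *Hist1h2bq*, *Hist1h2br*, *Hist2h3c2* and *Hist1h4j*. *Hist1h2bq* and *Hist1h2br* have the same coding sequence, which makes their values uncertain. Only 1.94% of the 35-base windows of *Hist1h2bq* and 10.6% of those of *Hist1h2br* occur in no other annotated transcript. In the fit that keeps all 56 members, the median log2 fold change was −0.43 for the long and −0.79 for the short members. The direction was not the same in all long members: *Hist2h2be*, *Hist4h4*, *Hist2h4* and *Hist1h1c* have 880 to 2515 annotated bases after the stop codon and were lower in LS1.

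**Figure D4:**
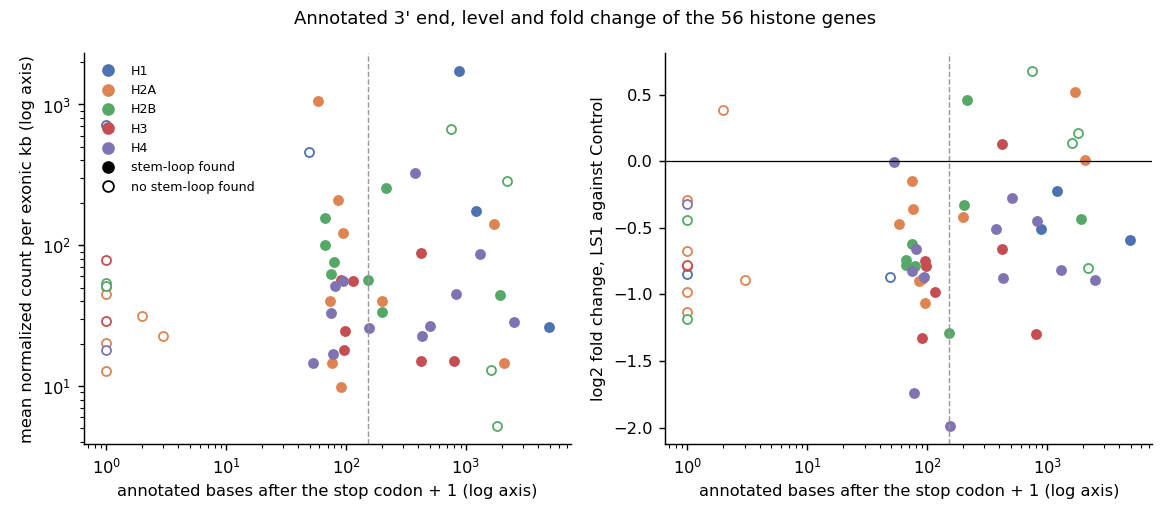
Annotated bases after the stop codon plus 1 in the longest transcript (x axes, log scale) against the mean normalized count per exonic kilobase (left, log scale) and the log2 fold change of LS1 against Control (right) for the 56 members, coloured by class. Open points have no stem-loop match and the dashed line marks 150 bases. Right of the line are 23 members, among them 7 of the 8 with a higher LS1 mean.

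The reads were 35 to 50 bases long, and whether reads that match several near-identical copies were counted is not given in the sources used here. The share of a member's 35-base windows found in no other annotated transcript was under 20% in 16 members, 20 to 60% in 22 and 60% or more in 18, whose median levels were 30.2, 42.7 and 114 normalized counts per exonic kilobase. LS1 means were lower in 13, 21 and 14 of them, so lower means prevailed in each set. Of the 9 histone genes in the table that missed the level for membership, 6 were listed at 0 in all libraries. For 5 of these 6, *Hist2h2aa1*, *Hist2h2aa2*, *Hist2h2bb*, *Hist2h3b* and *Hist2h3c1*, no 35-base window is their own, and the remaining gene is *Hist1h2aa*, known from testis. Each of the 5 overlaps another annotated gene, whose transcripts count as others here. Windows shared through such an overlap were not told apart from windows shared with copies elsewhere. The same holds for the shares of members that overlap another annotated gene on either strand. The other 3 were *Hist1h2ba*, *Hist1h3f* and *Hist1h1t*, with means of 4.57, 4.08 and 1.56, against 5.05 for the lowest member, *Hist1h2ai*. *Hist1h1t*, the testis linker histone gene, had 3 reads or fewer in every library.

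In the 11 divergent pairs of members, both genes had a negative log2 fold change in 8 pairs, both a positive one in 1, and opposite signs in 2, in the fit that keeps all members. In that fit 48 of the 56 members were negative, against 50.3% of all 24437 genes. Negative pairs are therefore frequent by the members' direction alone, and the counts were not read as a link between partners. Some signs rest on few reads, with −0.36 ± 0.85 (SE) for *Hist1h2ag* and −0.29 ± 0.73 (SE) for *Hist1h2ai*. *Hist2h2ac* and *Hist2h2be*, with the chromosome 3 stretch printed above between them, had −1.07 and −0.80. *Hist1h2an* and *Hist1h2bp* had −0.98 and −1.29, and *Hist1h2ak* and *Hist1h2bn* had −1.13 and −1.19. *Hist1h2ac* and *Hist1h2bc*, with the chromosome 13 stretch between them, had 0.01 ± 0.50 (SE) and 0.68. *Hist1h2ac* had 32.3, 59.9 and 18.8 in Control and 56.2, 23.5 and 28.0 in LS1, with the libraries of both groups mixed. Its LS1 mean of 35.9 was below its Control mean of 37.0, so its positive sign is uncertain. The 2 pairs with opposite signs were *Hist1h2ap* with *Hist1h2br* and *Hist1h2bq* with *Hist1h2ao*, in which the H2A gene was lower and the H2B gene, with a long annotated 3′ end and few reads, was not. In these pairs, few 35-base windows of either gene occur in no other annotated transcript, so the signs are uncertain. No fold change in these pairs passed an adjusted p of 0.05 in limma.

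Replacement histones, which are made outside S phase from ordinary polyadenylated transcripts, served for comparison, from a list chosen with earlier results known. Of the 11 measured, 8 were lower and 3 higher in LS1, the median being −0.19 on the log2 scale, with none past an adjusted p of 0.05. *H3f3b*, a gene for a replacement H3, had the highest level per kilobase. Its normalized counts were 45719, 39264 and 30215 in Control and 48112, 40355 and 47390.1 in LS1, with a log2 fold change of 0.25 ± 0.16 (SE, limma adjusted p = 0.538). Linker histone *H1f0*, known from differentiated cells, had 19017, 21043 and 22671 in Control and 19106, 21774 and 25367 in LS1, and a log2 fold change of 0.07 ± 0.14 (SE, limma adjusted p = 0.865). *H2afz*, a replacement H2A gene, had 10476, 10079.5 and 10138 in Control and 10652, 6113 and 7148 in LS1, and a log2 fold change of −0.40 ± 0.18 (SE, limma adjusted p = 0.390). *H2afj* and *H2afv*, with the largest decreases of the list, had log2 fold changes of −0.76 ± 0.20 (SE, limma adjusted p = 0.220) and −0.60 ± 0.16 (SE, limma adjusted p = 0.227).

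Per exonic kilobase, the 2 replacement H1 genes summed to 2.40 to 3.15 times the 5 replication-dependent H1 members in the Control libraries and 3.53 to 5.72 times in LS1. For H3, the 2 replacement genes summed to 23.8 to 35.4 times the 9 members in Control and 39.0 to 83.2 times in LS1. The ranges did not overlap for H1 or H3. For 6 replacement H2A genes against the 15 members they did, at 5.03 to 9.66 times in Control and 7.19 to 12.5 times in LS1. Transcripts of replacement genes are polyadenylated and those of the members normally are not, so the ratios are not those of total mRNA. Near-identical copies add uncertainty to the member sums, and no background was computed for the ratios.

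Genes for histone mRNA processing and for histone chaperones and assembly factors had smaller differences than the members. Of 18 tested factors that transcribe or trim histone mRNA, 15 were lower in LS1, the median being −0.13 on the log2 scale, with none past an adjusted p of 0.05. *Slbp*, which encodes the protein that binds the stem-loop, had 27689.5, 27354 and 21416 in Control and 21790.4, 20877 and 20069.9 in LS1. Control replicate 3 lay within the LS1 range, and the log2 fold change was −0.28 ± 0.14 (SE, limma adjusted p = 0.430). *Ccne1*, the cyclin that drives entry into S phase, and *Cdk2*, its kinase, had log2 fold changes of −0.54 ± 0.20 (SE, limma adjusted p = 0.311) and −0.33 ± 0.18 (SE, limma adjusted p = 0.468). *Npat*, the histone gene coactivator that this kinase phosphorylates, was at −0.12 ± 0.16 (SE, limma adjusted p = 0.784). Of 11 tested chaperones and assembly factors, 7 were lower, with a median of −0.21. The 3 with the highest levels per kilobase, *Npm1*, *Ssrp1* and *Nasp*, had log2 fold changes of 0.05 ± 0.15 (SE), −0.21 ± 0.13 (SE) and −0.28 ± 0.14 (SE). *Chaf1b*, a subunit of the factor that loads H3 and H4 behind the replication fork, was at −0.49 ± 0.16 (SE, limma adjusted p = 0.264).

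Markers of dividing cells had lower values in LS1 as well. Of 30 S phase genes, 29 had a negative log2 fold change, with a median of −0.30 and summed normalized counts of 327230.4 to 383034 in Control and 273003 to 310257 in LS1. All 20 mitosis genes were negative, with a median of −0.27 and sums of 291782 to 346548 in Control and 255979 to 262961 in LS1. No gene of either list passed an adjusted p of 0.05 in limma. *Lig1*, the ligase that joins Okazaki fragments, was at −0.57 ± 0.15 (SE, limma adjusted p = 0.213), and *Mki67*, the common proliferation marker, at −0.48 ± 0.13 (SE, limma adjusted p = 0.220). The median over the S phase list was −0.38, −0.20 and −0.29 in LS1 replicates 1, 2 and 3 relative to the Control mean, closer together than the −0.97, −0.45 and −0.28 of the histone members.

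Marrow and cartilage marker lists were set beside the members. All 11 measured erythroid genes were lower, with a median of −0.54 and sums of 433360.3 to 554808 in Control and 298418 to 483370.1 in LS1, and their median was −1.02, −0.20 and −0.45 in LS1 replicates 1, 2 and 3. LS1 replicate 1 was the lowest LS1 library for the erythroid list as for the members, and also for the S phase, mitosis, replacement histone, histone mRNA processing, chaperone, osteoclast and neutrophil lists. Among 12 B cell genes there were 11 with a negative log2 fold change, the median was −0.47 and the sums were 59628 to 62189 in Control and 35648 to 54831 in LS1, and LS1 replicate 2 was lowest. All 12 chondrocyte genes were higher, with a median of 0.56 and sums of 2503448 to 2868566 in Control and 3340109.8 to 3785814 in LS1. None of these genes passed an adjusted p of 0.05 in limma. Neutrophil and macrophage genes had medians of 0.22 and 0.38, and osteoblast and osteoclast genes 0.05 and 0.04. The part of these cell types in the histone differences was not tested.

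**Figure D5:**
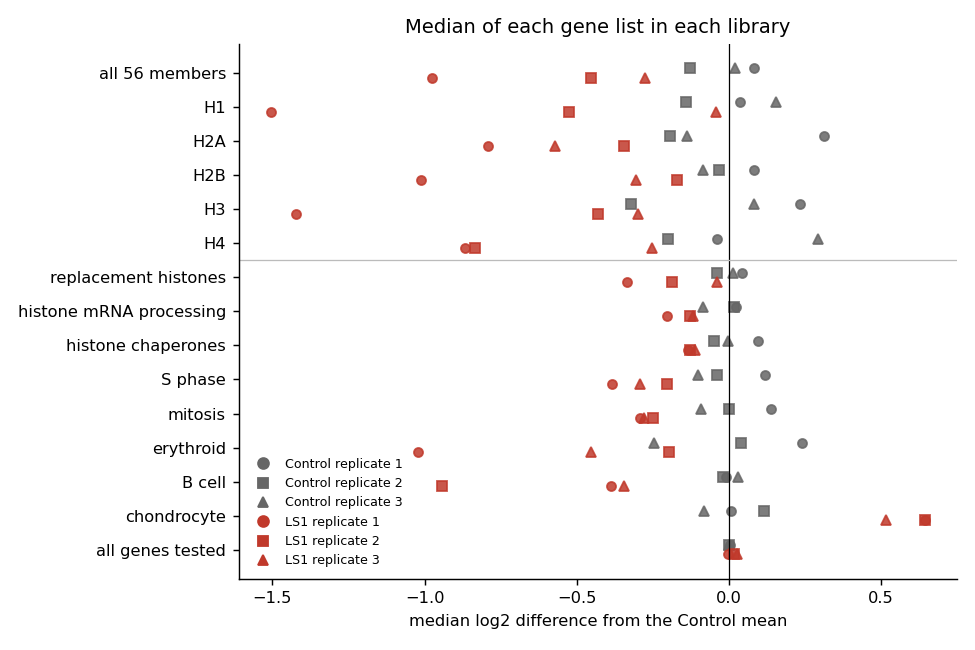
Median, over the genes of each list, of the log2 difference from the Control mean (x axis) in each library. Grey is Control, red is LS1, and the circle, square and triangle are replicates 1, 2 and 3; the lists above the line are the histone members (all 56, with those under the read minimum) and the lists below it hold tested genes. The LS1 medians of all members are −0.97, −0.45 and −0.28, and that of LS1 replicate 1 is also the lowest of the LS1 libraries for most of the lists, the erythroid, S phase and mitosis lists among them.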

How the data were processed

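RNA was measured in 6 mice, 3 Control and 3 LS1, with 1 library each. Per the labels and the study's methods, the authors aligned the reads with HISAT2 2.0.2 to GRCm38 (Ensembl annotation), counted them per gene with featureCounts 1.4.6 and divided them by DESeq2 size factors. The deposited values are such a normalized signal, and dividing by the value of 1 read gave whole reads (tolerance 0.001) for 100% of values in each library. In Control replicate 1 a read is worth 1.01, close to 1. The size factor recomputed from the recovered reads of that library, 0.991, matched the inverse of the value of 1 read. DESeq2 was also run without Control replicate 1, a setting chosen after seeing the data, and no other library was left out with DESeq2. Genes with a mean of 20 or more reads were tested on log2(normalized count + 1) with limma 3.58.1 (mean-variance trend, robust moderation, R 4.3.3), with Benjamini-Hochberg adjustment over 19308 genes and a threshold of 0.05. A fold change on this scale understates that of low genes. The study's own test, DESeq2 (1.42.0), and edgeR 4.0.16 and limma-voom were run on the recovered reads as alternatives. No interval was computed for single values; 3 libraries per group limit the precision. Symbols, positions and transcripts came from GENCODE M21, promoters from RefSeq (matched by symbol or synonym, strand and position), and windows were compared with annotated transcripts, not with the genome. Full values were given for the 3 members of each class with the highest level per exonic kilobase, the 3 tested members with the largest increase and decrease, any member called by limma or DESeq2, and testis genes. The values of other members named were chosen after they were seen. The members and the gene lists were chosen with earlier results of these data known. Other settings tried were TMM factors, lower filters, pseudocounts of 0.5 and 5, offsets for GC content and length, the letter of the title as a block, and leaving out each library.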

Additional observations from a re-analysis of the deposited data

Results flagged for a closer look

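*Hist1h2ba*, an H2B gene known from testis that missed the level for membership, was at 1.01, 2.22 and 1.11 normalized counts in Control and 6.67, 5.22 and 11.2 in LS1, with a mean of 7.69 in LS1. Every LS1 library was above every Control library in this gene outside the members. It rested on 1, 2 and 1 reads in Control and 7, 6 and 12 in LS1, and the limma fit that keeps every gene with a read gave a log2 fold change of 1.81 ± 0.70 (SE) with an adjusted p of 0.426. Such an order was seen for 9.23% of genes with a mean of 5 or more, a set above the level of this gene. *Hist1h3f* and *Hist1h1t*, which also missed the level, had the opposite order, again on few reads. That order was seen for 8.57% of genes with a mean of 5 or more, again a set above their level. *Hist1h3f* was at 4.04, 8.87 and 7.74 normalized counts in Control and 3.81, 0 and 0 in LS1. *Hist1h1t* was at 2.02, 2.22 and 3.32 in Control and 0.952, 0.870 and 0 in LS1.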

How the results depend on the processing

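The comparison had 3 mice per line, and 0.00789 to 0.0137% of reads were on the members. Members called numbered 0 in limma, 1 with DESeq2, 0 with DESeq2 on the 5 libraries other than Control replicate 1, and 0 to 1 when a library was left out. Their median log2 fold change of −0.64 ranged from −0.78 to −0.36 when a library was left out. For H2A the median ranged from −0.66 to −0.027 in the same way and was −0.095 with DESeq2 on those 5 libraries, a setting chosen after seeing the data, and for H2B it ranged from −0.78 to −0.32. Of all genes tested, 14 were called by limma, 456 by DESeq2, 242 by DESeq2 without Control replicate 1, 7 by edgeR, 8 by limma-voom, 45 when every gene with a read was kept, 8 with the length offset, and 5 to 324 when a library was left out, the highest count without LS1 replicate 3. *Hist1h2ap* ranged from −0.74 to 0.015, the latter without Control replicate 1, and was 0.046 with DESeq2 on those 5 libraries, while *Hist3h2ba* ranged from −0.11, without LS1 replicate 2, to 1.22. Of 306 values of the 17 named members under 18 alternatives, 301 kept their sign and their side of the threshold. These members were picked in part for their large fold changes in these libraries, and none was called in the main fit. The count therefore does not speak for the other tested members. Libraries with the same title letter correlated at 0.05, 0.02 and 0.22 in their deviations, so the letter was not taken to pair them; with it as a replicate block, 12 genes and 0 members were called and the members' median stayed at −0.64. The causes were not tested.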
